A study of Mus musculus with 16 samples.

Results

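The 6 genes described here encode dual-specificity phosphatases (DUSPs) with JNK or p38 MAP kinases among their substrates: Dusp1, Dusp2, Dusp8, Dusp10, Dusp14 and Dusp16. They were taken by name from a list of Dusp genes, without those counted as specific for the MAP kinase ERK, and with earlier results of these data known. The set does not hold every Dusp gene that can act on JNK or p38, and Dusp4 is outside it. Out of 19938 genes measured on the array, each member was represented by its brightest probe set in the deposited table of log2 values. All 6 were measured, and only Dusp8 has a further probe set of its own. Expression was profiled in mouse embryonic fibroblasts (MEFs) on 16 Affymetrix Mouse Gene 1.0 ST arrays, 4 for each of 4 groups: SIMPL-/- MEFs treated with TNFα, untreated SIMPL-/- MEFs, littermate MEFs treated with TNFα and untreated littermate MEFs. SIMPL-/- MEFs lack the product of Irak1bp1, and both genotypes, labelled IRAK1BP1 KO and WT, are of the mixed strain C57Bl/6 x 129Sv. TNFα was recombinant human protein at 10 ng/ml, given for 45 min by the array labels and for an hour by the study's methods. The methods describe MEFs grown from a single embryo, 4 separate times per strain, so treated and untreated arrays of a strain may come from the same embryos. No source says which arrays share an embryo, and the TNFα comparisons were made without pairing, although they may be paired by design. Where a culture was used for more than 1 array of a group, the p-values measure the spread between arrays and not between embryos.

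MAP kinases are switched on when a kinase adds phosphate to a threonine and a tyrosine in their activation loop, and DUSPs switch them off by removing both phosphates. JNK and p38 are activated by TNFα and other stresses, and several DUSP genes are transcribed in response to the same signals, which makes the phosphatases part of a negative feedback. Dusp1 (MKP-1) and Dusp2 (PAC-1) are nuclear enzymes encoded by early-response genes, and Dusp2 also acts on ERK. Dusp8, Dusp10 (MKP-5) and Dusp16 (MKP-7) form the class that prefers JNK and p38, while Dusp14 (MKP-6) is a small atypical phosphatase without the kinase-binding domain of the others and with ERK and TAB1 among its reported substrates.

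The DNA just before the start sites of 5 members is shown because they carry the differences described below: Dusp8, Dusp16 and Dusp10 rose after TNFα, Dusp1 had the largest estimated difference between the untreated genotypes, and Dusp14 was called between the genotypes with and without TNFα. Each window is the 250 bases before a RefSeq start (build GRCm38.p6), read 5′ to 3′ on the gene's strand. Capitals mark the cAMP response element (CRE) TGACGTCA, a site known to bind ATF and CREB factors, and its half-site TGACG on either strand.
Dusp8, chr7:142095285-142095534, minus strand: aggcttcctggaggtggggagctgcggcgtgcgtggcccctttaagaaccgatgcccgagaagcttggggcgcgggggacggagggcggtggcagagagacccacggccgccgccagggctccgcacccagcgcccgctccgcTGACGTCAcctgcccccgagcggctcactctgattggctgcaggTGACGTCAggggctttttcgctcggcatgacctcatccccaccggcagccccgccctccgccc
Dusp16, chr6:134792629-134792878, minus strand: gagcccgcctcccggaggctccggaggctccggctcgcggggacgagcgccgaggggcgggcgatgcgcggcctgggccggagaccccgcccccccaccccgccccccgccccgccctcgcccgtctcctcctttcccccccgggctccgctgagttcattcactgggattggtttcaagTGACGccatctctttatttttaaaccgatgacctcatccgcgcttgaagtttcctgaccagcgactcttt
Dusp10, chr1:184034131-184034380, plus strand: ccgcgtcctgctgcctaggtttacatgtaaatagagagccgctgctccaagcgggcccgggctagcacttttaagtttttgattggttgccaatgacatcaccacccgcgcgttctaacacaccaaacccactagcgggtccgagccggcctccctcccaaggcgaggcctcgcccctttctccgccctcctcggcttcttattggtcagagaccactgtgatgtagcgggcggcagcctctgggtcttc
Dusp1, chr17:26508473-26508722, minus strand: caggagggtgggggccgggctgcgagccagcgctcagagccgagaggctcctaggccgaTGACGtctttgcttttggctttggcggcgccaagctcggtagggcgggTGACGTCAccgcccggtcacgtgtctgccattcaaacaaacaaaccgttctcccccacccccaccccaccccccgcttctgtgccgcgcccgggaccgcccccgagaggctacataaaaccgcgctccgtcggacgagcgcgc
Dusp14, chr11:84068358-84068607, minus strand: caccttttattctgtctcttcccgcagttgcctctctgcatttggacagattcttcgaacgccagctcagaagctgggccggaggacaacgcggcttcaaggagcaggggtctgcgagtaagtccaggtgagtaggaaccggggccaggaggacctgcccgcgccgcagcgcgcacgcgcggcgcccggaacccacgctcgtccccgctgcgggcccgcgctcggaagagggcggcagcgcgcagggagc

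The Dusp8 window held 2 full CREs, which begin 107 and 63 bases before the start, and the Dusp1 window held 1, at 143 bases, with a separate half-site at 191 bases. The Dusp16 window held 1 half-site, at 70 bases, and no full CRE. Neither a CRE nor a half-site was found in the windows of Dusp2, Dusp10 and Dusp14. Of 32851 RefSeq windows of the same length, 1.55% held a CRE and 17.8% a half-site, each searched on both strands, and every CRE contains half-sites. The AP-1 letters TGANTCA, found in 6.75% of all windows, were in none of the 6. A loose κB pattern, GGGNNNNNCC, present in 45.8% of all windows, matched in Dusp1, Dusp2, Dusp10 and Dusp14 and not in Dusp8 or Dusp16. The loose CArG pattern CCNNNNNNGG, bound in a stricter form by serum response factor, matched in all 6 windows and in 67.1% of all windows. The Dusp8 and Dusp16 windows shared the run atgacctcatcc of 12 bases, beginning 37 and 43 bases before their starts. It was the longest run shared by any pair of the 6 windows, each read on its gene's strand. Runs shared between opposite strands were not looked for. The core of the shared run, TGACCTCA, which was picked after the windows had been read, occurred in 1.94% of all windows and in none of the other 4. These matches describe letters and not bound sites. The Dusp8, Dusp14 and Dusp16 starts lie 623, 899 and 14435 bases inside the annotated ends of their genes, since other transcripts begin further out.

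Irak1bp1 checked the labels. Its log2 value was 5.37 ± 0.24 in TNFα treated and 5.36 ± 0.19 in untreated SIMPL-/- MEFs, against 7.91 ± 0.18 in treated and 8.09 ± 0.17 in untreated littermate MEFs (SD, n = 4 arrays each), with no overlap between the genotypes. Whether its probe set lies in the deleted stretch was not examined. Fibroblast markers were high as a sum in all groups, with a log2 of the summed level of 16.51 to 16.58 over SIMPL-/- arrays and 16.76 to 16.84 over littermate arrays for 13 measured of 14 listed markers. Of these 13, 9 were called lower in SIMPL-/- MEFs and 2 higher, both after TNFα and without it. Among the 9, Lum averaged 8.26 in untreated SIMPL-/- and 11.13 in untreated littermate MEFs, and Col1a1 14.14 and 14.38. Macrophage and other myeloid markers differed more: 22 of 22 measured were lower in SIMPL-/- MEFs both after TNFα and without it, with a summed level of 12.33 to 12.50 over SIMPL-/- arrays and 14.65 to 15.15 over littermate arrays. No value on these arrays was under 2.41, so the scale has no 0 that marks an absent gene. Whether each myeloid marker was expressed in SIMPL-/- MEFs was not tested, and the dimmest, Aif1, averaged 5.26 there after TNFα and 5.33 without it. Of 6 epithelial markers, 3 were higher in SIMPL-/- MEFs after TNFα and 4 without it, and 0 were lower. Their summed level, 10.68 to 10.95 over SIMPL-/- arrays and 9.15 to 9.39 over littermate arrays, was carried by the keratin genes Krt8, Krt18 and Krt14, while Epcam averaged 5.72 in SIMPL-/- and 5.71 in littermate MEFs after TNFα. These markers moved with every difference between the genotypes given below, and their part in it was not tested. The arrays hold RNA of whole cultures, so fewer cells of a type and less RNA per cell cannot be told apart, and a hybridization batch that followed the genotype could not be told apart from it either.

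Dusp8 and Dusp16 rose after TNFα in both genotypes. Dusp8 had log2 values of 8.47, 8.40, 8.29 and 8.42 in TNFα treated SIMPL-/- MEFs and 8.05, 8.04, 8.04 and 7.98 in untreated SIMPL-/- MEFs. In littermate MEFs it had 8.30, 8.34, 8.59 and 8.54 with TNFα and 7.68, 7.77, 7.70 and 7.67 without. Treated arrays thus lay above all untreated arrays in each genotype, the treated arrays of both genotypes overlapped, and the untreated SIMPL-/- arrays lay between the treated arrays and the untreated littermate arrays. The rise in SIMPL-/- MEFs was 0.36 on the log2 scale (SE 0.06, 95% CI 0.23 to 0.50, 1.29-fold, limma adjusted p = 0.00231, n = 4 arrays per group). In littermate MEFs it was 0.74 (SE 0.06, 95% CI 0.60 to 0.88, 1.67-fold, limma adjusted p = 2.07e-07).

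The other probe set of Dusp8, examined after the values of the first were known, gave the same order of groups. Its log2 values were 6.92, 6.65, 6.62 and 6.86 in treated and 6.47, 6.53, 6.59 and 6.21 in untreated SIMPL-/- MEFs, against 6.76, 6.98, 7.35 and 6.87 in treated and 6.02, 6.19, 6.21 and 5.96 in untreated littermate MEFs. Treated arrays again stood above the untreated arrays of their genotype. The TNFα difference was 0.31 in SIMPL-/- MEFs (SE 0.11, limma adjusted p = 0.161), which did not pass the threshold of 0.05, and 0.90 in littermate MEFs (SE 0.11, limma adjusted p = 3.12e-05).

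Dusp16 followed the same course. It had 8.74, 8.87, 8.84 and 9.03 in TNFα treated SIMPL-/- MEFs and 8.44, 8.53, 8.36 and 8.43 in untreated SIMPL-/- MEFs. Littermate MEFs had 8.68, 8.93, 9.03 and 8.88 with TNFα and 8.10, 8.11, 7.99 and 8.01 without. The treated groups covered nearly the same range, and the 3 levels (treated, untreated SIMPL-/-, untreated littermate) did not overlap. The rise was 0.43 in SIMPL-/- MEFs (SE 0.07, 95% CI 0.28 to 0.59, 1.35-fold, limma adjusted p = 0.00159, and 0.0596 by the methods' t-test) and 0.83 in littermate MEFs (SE 0.07, 95% CI 0.68 to 0.98, 1.78-fold, limma adjusted p = 2.61e-07).

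**Figure D1:**
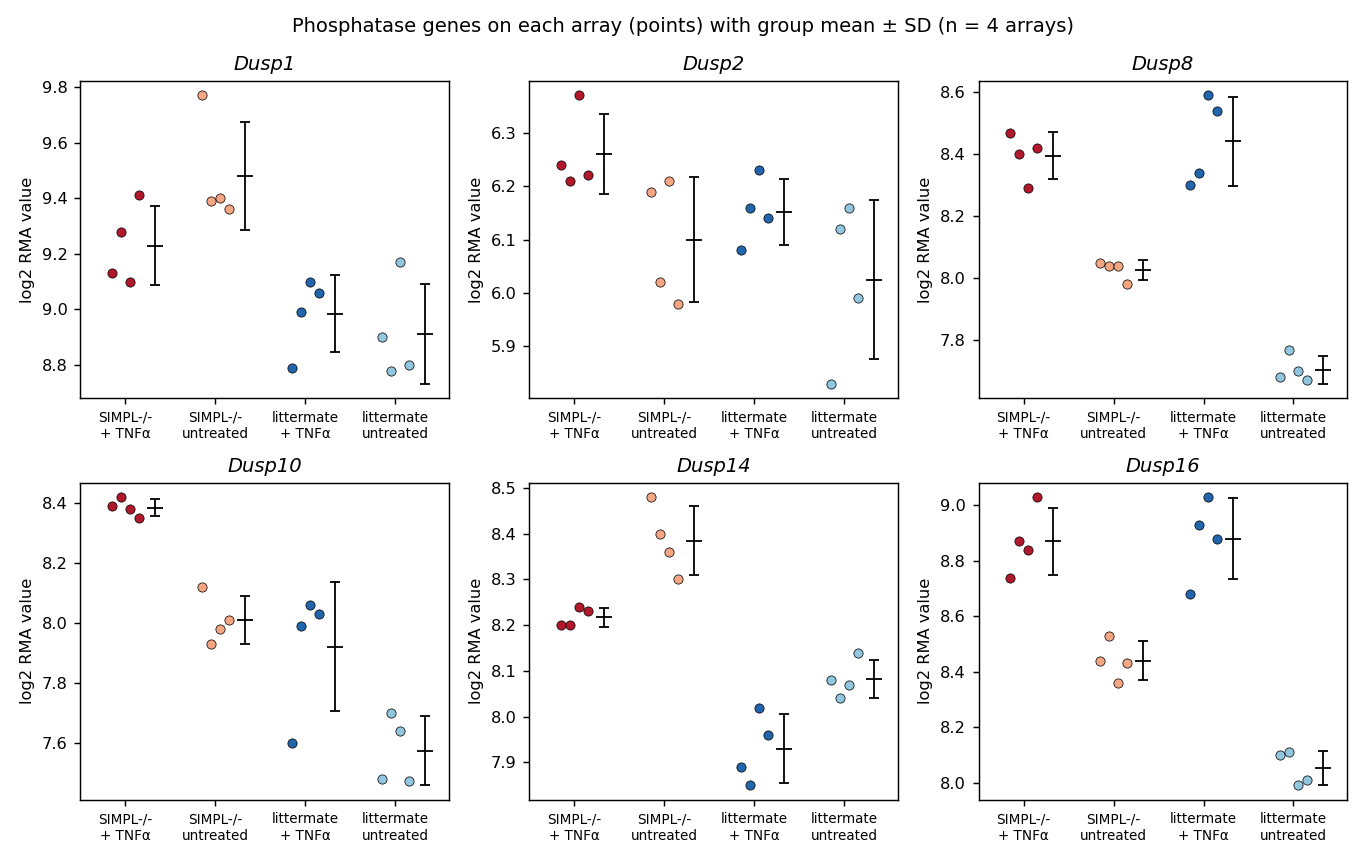
Log2 RMA value of each of the 6 phosphatase genes (vertical axis, its own range in each panel) on 16 arrays, by genotype and treatment (horizontal axis); points are arrays and bars are the group mean ± SD (n = 4 arrays). For Dusp8 and Dusp16 the treated groups overlap at the top and the untreated littermate arrays are lowest, while Dusp14 has 4 groups that do not overlap.

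Dusp10, whose product acts on JNK and p38, rose after TNFα with similar estimates in both genotypes, from a higher level in SIMPL-/- MEFs. Its values were 8.39, 8.42, 8.38 and 8.35 in treated and 8.12, 7.93, 7.98 and 8.01 in untreated SIMPL-/- MEFs. Littermate MEFs had 7.60, 7.99, 8.06 and 8.03 with TNFα and 7.48, 7.70, 7.64 and 7.47 without. All treated SIMPL-/- arrays stood above all other arrays, whereas 1 treated littermate array, replicate 1 at 7.60, fell within the range of the untreated ones. The rise was 0.38 in SIMPL-/- MEFs (SE 0.09, 95% CI 0.20 to 0.55, 1.30-fold, limma adjusted p = 0.0174) and 0.35 in littermate MEFs (SE 0.09, 95% CI 0.17 to 0.53, limma adjusted p = 0.0196). Both calls lay near the threshold. The littermate call was lost without untreated replicate 1 or 4 or treated replicate 2, 3 or 4 (limma adjusted p from 0.0552 to 0.0726), and the SIMPL-/- call without untreated replicate 2 or 3 or treated replicate 2 (0.0504 to 0.0582).

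Dusp14 stood slightly lower after TNFα in both genotypes, although neither difference passed the test over all genes. It had 8.20, 8.20, 8.24 and 8.23 in treated and 8.48, 8.40, 8.36 and 8.30 in untreated SIMPL-/- MEFs, against 7.89, 7.85, 8.02 and 7.96 in treated and 8.08, 8.04, 8.07 and 8.14 in untreated littermate MEFs. Each treated array lay below each untreated array of its genotype. The difference was −0.17 in SIMPL-/- MEFs (SE 0.05, 95% CI −0.28 to −0.05, limma adjusted p = 0.119) and −0.15 in littermate MEFs (SE 0.05, 95% CI −0.27 to −0.04, limma adjusted p = 0.125). With the dimmer genes left out of the test, the first of these passed (adjusted p = 0.0385).

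Neither of the nuclear early-response phosphatases passed the test for a TNFα difference at this time point. Dusp1 had 9.13, 9.28, 9.10 and 9.41 in treated and 9.77, 9.39, 9.40 and 9.36 in untreated SIMPL-/- MEFs. In littermate MEFs it had 8.79, 8.99, 9.10 and 9.06 with TNFα and 8.90, 8.78, 9.17 and 8.80 without. Treated and untreated arrays overlapped in both genotypes, and the difference was −0.25 in SIMPL-/- MEFs (SE 0.10, 95% CI −0.47 to −0.04, limma adjusted p = 0.228) and 0.07 in littermate MEFs (SE 0.10, 95% CI −0.15 to 0.29, limma adjusted p = 0.806). Untreated SIMPL-/- replicate 1, at 9.77, lay apart from the other 3 arrays of its group.

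Dusp2, best known from lymphocytes and macrophages, was measured at 6.24, 6.21, 6.37 and 6.22 in treated and 6.19, 6.02, 6.21 and 5.98 in untreated SIMPL-/- MEFs, and at 6.08, 6.16, 6.23 and 6.14 in treated and 5.83, 6.12, 6.16 and 5.99 in untreated littermate MEFs. The array medians lay between 6.667 and 6.764, so Dusp2 was below the median probe set on every array. Its TNFα difference was 0.16 in SIMPL-/- MEFs (SE 0.07, 95% CI 0.00 to 0.31, limma adjusted p = 0.309) and 0.13 in littermate MEFs (SE 0.07, 95% CI −0.03 to 0.28, limma adjusted p = 0.417).

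In the TNFα response, 3 of 6 members were called higher in each genotype, Dusp8, Dusp10 and Dusp16, and 0 of 6 lower. By the methods' t-test, after adjustment, 2 were called in each genotype: the Dusp16 call was lost in SIMPL-/- MEFs (adjusted p = 0.0596) and the Dusp10 call in littermate MEFs (adjusted p = 0.246). Among all 19938 genes, 1.73% were called higher and 1.39% lower in SIMPL-/- MEFs, and 2.70% higher and 2.45% lower in littermate MEFs. The median member difference was 0.26 in SIMPL-/- MEFs and 0.24 in littermate MEFs, beside −0.023 and 0.009 over all genes. Ranked by rise over all genes, Dusp16 was number 167 in SIMPL-/- MEFs and number 93 in littermate MEFs, Dusp8 number 226 in SIMPL-/- and number 118 in littermate MEFs, and Dusp10 number 214 in SIMPL-/- and number 345 in littermate MEFs. Centring each array on its median changed the split of all SIMPL-/- calls to 401 higher and 152 lower, against 345 and 278 as deposited, and the same 3 members were called higher.

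**Figure D2:**
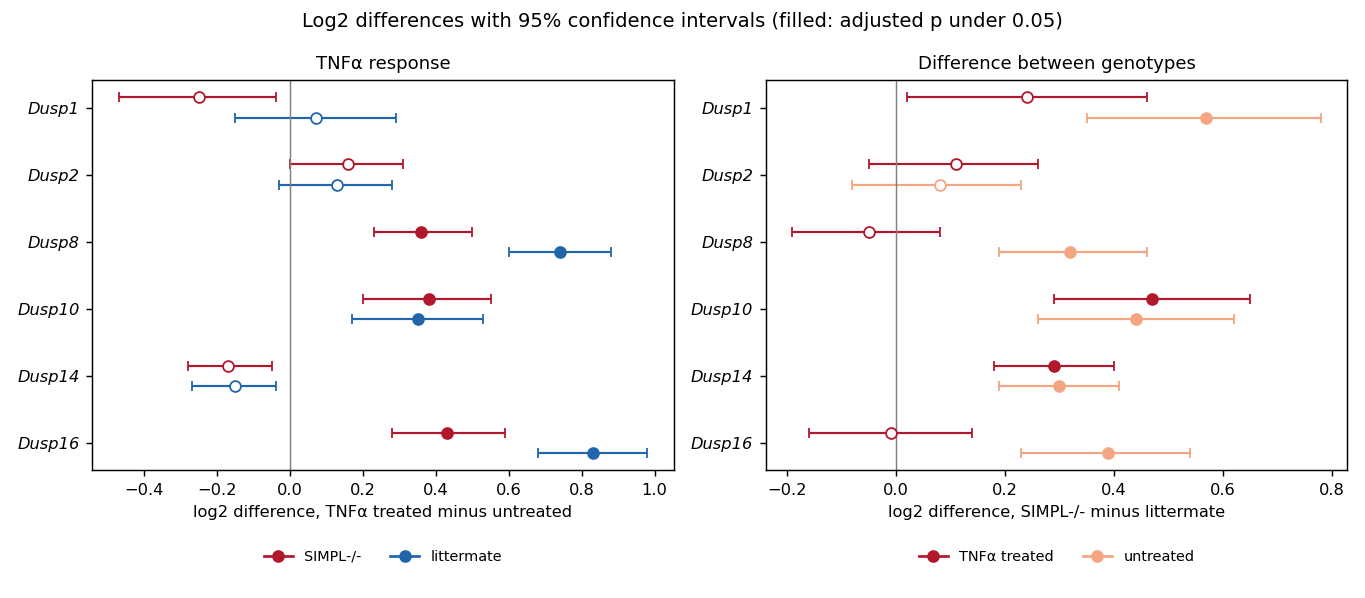
Log2 differences (horizontal axes) of the 6 phosphatase genes with 95% confidence intervals from limma (n = 4 arrays per group); filled points had an adjusted p under 0.05. Left, TNFα treated minus untreated in SIMPL-/- MEFs (red) and littermate MEFs (blue): the intervals of Dusp8 and Dusp16 for the 2 genotypes lie apart. Right, SIMPL-/- minus littermate in treated (red) and untreated (orange) MEFs: Dusp8 and Dusp16 are near 0 after TNFα and higher in SIMPL-/- MEFs without it.

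The estimated rise of Dusp8 and Dusp16 was smaller in SIMPL-/- than in littermate MEFs, but the test of that difference over all genes fell short of the threshold. The difference between the responses, SIMPL-/- minus littermate, was −0.38 for Dusp8 (SE 0.09, 95% CI −0.57 to −0.18, limma unadjusted p = 6.46e-04, adjusted p = 0.0815). It was −0.40 for Dusp16 (SE 0.10, 95% CI −0.62 to −0.18, limma unadjusted p = 0.00121, adjusted p = 0.106). The other probe set of Dusp8 gave −0.58 (SE 0.16, adjusted p = 0.131). For Dusp1 the difference was −0.33 (SE 0.15, 95% CI −0.63 to −0.02, unadjusted p = 0.0388, adjusted p = 0.36). Dusp2, Dusp10 and Dusp14 were near 0, at 0.03 (95% CI −0.19 to 0.25), 0.03 (95% CI −0.22 to 0.28) and −0.01 (95% CI −0.17 to 0.15).

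By limma, 0 of 6 members were called in this comparison, where 0.0953% of all genes were called higher and 0.441% lower (19 and 88 genes, or 39 and 97 after quantile normalization). At an unadjusted p under 0.05, 0 members were higher and 3 lower by limma, where 4.67% of all genes were higher and 8.26% lower. By a test without moderated variances 0 were higher and 2 lower at that p, where 5.15% of all genes were higher and 7.68% lower, and 0 members passed after adjustment. Several settings put Dusp8 and Dusp16 past the threshold: leaving out the dimmer genes, a variance trend with robust moderation, array weights, and leaving out treated littermate replicate 1. Dusp16 alone also passed after quantile normalization. Over the alternatives, the adjusted p ranged from 0.0265 to 0.17 for Dusp8 and from 0.0353 to 0.2 for Dusp16, with differences of −0.58 to −0.33 and −0.46 to −0.35.

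Without TNFα, 5 of the 6 phosphatase genes were called higher in SIMPL-/- than in littermate MEFs, where 23.3% of all genes were called higher. The SIMPL-/- and littermate arrays of these genes did not overlap. How many of all genes lay apart in this way was not counted, here or in the other comparisons, so it is not known whether this is unusual. Dusp1 had the largest estimate, at 9.48 ± 0.19 in SIMPL-/- and 8.92 ± 0.18 in littermate MEFs (SD, n = 4 arrays each), a difference of 0.57 (SE 0.10, 95% CI 0.35 to 0.78, 1.48-fold, limma adjusted p = 2.39e-04). Dusp10 averaged 8.01 ± 0.08 in SIMPL-/- and 7.57 ± 0.12 in littermate MEFs, a difference of 0.44 (SE 0.09, limma adjusted p = 4.26e-04). Dusp16 averaged 8.44 ± 0.07 in SIMPL-/- and 8.05 ± 0.06 in littermate MEFs, with a difference of 0.39 (SE 0.07, limma adjusted p = 3.41e-04). The difference was 0.32 for Dusp8 (SE 0.06, limma adjusted p = 5.77e-04; 0.35 and 0.0177 on its other probe set) and 0.30 for Dusp14 (SE 0.05, limma adjusted p = 1.91e-04). Dusp2 gave 0.08 (95% CI −0.08 to 0.23, limma adjusted p = 0.421). The percentage of all genes called was 23.3% higher and 17.6% lower, so calls were common in this comparison. The median member difference was 0.36, beside 0.075 over all genes.

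After TNFα, only Dusp10 and Dusp14 were called between the genotypes. Dusp10 averaged 8.39 ± 0.03 in SIMPL-/- and 7.92 ± 0.21 in littermate MEFs (SD, n = 4 arrays each), a difference of 0.47 (SE 0.09, 95% CI 0.29 to 0.65, limma adjusted p = 2.05e-04). Dusp14 averaged 8.22 ± 0.02 in SIMPL-/- and 7.93 ± 0.08 in littermate MEFs, a difference of 0.29 (SE 0.05, 95% CI 0.18 to 0.40, limma adjusted p = 2.52e-04). For both genes each SIMPL-/- array was above each littermate array. The treated genotypes overlapped for Dusp8, with a difference of −0.05 (95% CI −0.19 to 0.08), and for Dusp16, with −0.01 (95% CI −0.16 to 0.14), and both signs turned when arrays were centred on their medians or quantile normalized (0.02 and 0.02 for Dusp8, 0.06 and 0.03 for Dusp16). Dusp2 stood at 0.11 (95% CI −0.05 to 0.26, limma adjusted p = 0.294).

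Dusp1 was at 0.24 after TNFα (SE 0.10, 95% CI 0.02 to 0.46, limma adjusted p = 0.0797), and it passed the threshold after centring (0.31, adjusted p = 0.0227), after quantile normalization (0.28, adjusted p = 0.0311), with the dimmer genes left out (adjusted p = 0.0409) or without untreated SIMPL-/- replicate 1 (adjusted p = 0.046). Among all genes 17.8% were called higher and 18.4% lower, beside 2 of 6 members higher and 0 lower. The median member difference was 0.17, beside 0.031 over all genes. Centring on the array medians turned the split of all calls to 5927 higher and 2884 lower after TNFα (3557 and 3673 as deposited) and to 6573 higher and 3013 lower without it (4640 and 3511 as deposited), and the 5 differences of the untreated cells and the 2 of the treated cells kept their calls.

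The 4 groups thus fell into different orders for different members. For Dusp8 and Dusp16 the order by mean was treated littermate, treated SIMPL-/-, untreated SIMPL-/- and untreated littermate. The first pair overlapped, with gaps between means of 0.05 for Dusp8 and 0.01 for Dusp16. Its order turned when arrays were centred on their medians or quantile normalized. The other neighbours lay apart. Dusp14 ran from untreated SIMPL-/- through treated SIMPL-/- and untreated littermate to treated littermate, with gaps of 0.17, 0.14 and 0.15 between means and no overlap between neighbours. Treated SIMPL-/- was highest and apart for Dusp10, and its other neighbouring groups overlapped. All neighbours in the order overlapped for Dusp1 and Dusp2.

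Across the 16 arrays, Dusp8 and Dusp16 had a Pearson's r of 0.96, the highest among the 15 pairs of members, and their deviations from the group means had an r of 0.44. Dusp1 and Dusp14 had an r of 0.80, and the other pairs lay between −0.19 and 0.75. Over the 15 pairs, the deviations from the group means had an r between −0.03 and 0.64. These correlations are descriptions over 16 arrays that share 4 group means. The genes with the most similar pattern over all 19938 were the same for Dusp8 and Dusp16: Dlc1 (r = 0.982 with Dusp8 and 0.986 with Dusp16), and Mapk6, which encodes the atypical MAP kinase ERK3 (0.973 and 0.975). The nearest genes to the others were Pdlim5 and Aff1 for Dusp10 (0.967 and 0.965), Plk1 and Zfp809 for Dusp14 (0.972 and 0.959), Ric8a and Amotl2 for Dusp1 (0.928 and 0.920) and Stx6 and Ranbp3l for Dusp2 (0.814 and 0.806).

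**Figure D3:**
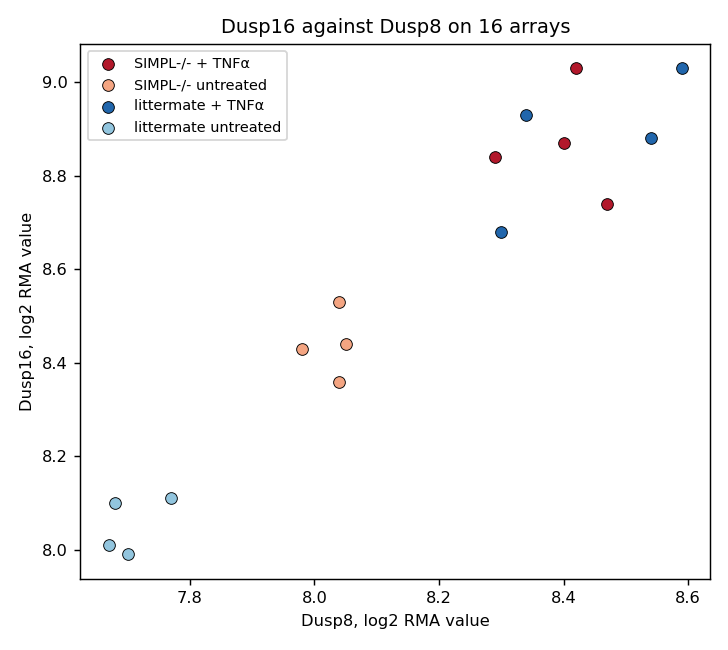
Log2 RMA value of Dusp16 (vertical axis) against that of Dusp8 (horizontal axis) on 16 arrays, coloured by group. The treated arrays of both genotypes share the upper right, the 4 untreated SIMPL-/- arrays lie in the middle and the 4 untreated littermate arrays at the lower left (Pearson's r = 0.96, and 0.44 for deviations from the group means).

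The other MAP kinase phosphatases, Dusp4, Dusp5, Dusp6, Dusp7 and Dusp9, most of which act mainly on ERK, included larger estimated differences between the genotypes than any of the 6 members. In the TNFα response of SIMPL-/- MEFs, 1 of 5 rose, Dusp5 by 0.53 (adjusted p = 2.03e-04), and 0 fell. In that of littermate MEFs 0 were called higher and 2 fell, Dusp6 by 1.05 (adjusted p = 1.22e-08) and Dusp7 by 0.35 (adjusted p = 0.00222). Dusp5 stood at 0.23 there (limma adjusted p = 0.0916), with every treated array above every untreated one. Its difference between the responses was 0.30 and was not called (limma adjusted p = 0.256). Dusp6, the cytoplasmic ERK phosphatase, was the only one of 24 measured Dusp genes whose responses differed past the threshold in the limma fit reported here, with a difference of 0.93 (SE 0.11, adjusted p = 7.67e-05). Dusp7 also passed with the dimmer genes left out (0.36, adjusted p = 0.0297), with a variance trend and robust moderation, with array weights or without treated SIMPL-/- replicate 3, as Dusp8 and Dusp16 did in the settings named above. The Dusp6 estimate was opposite in sign to those of Dusp8 and Dusp16. After TNFα 4 of 5 were higher in SIMPL-/- MEFs and 0 lower, and without it 4 were higher and 1, Dusp7, lower. Dusp4, which can act on JNK and p38 as well as on ERK, had the largest of these differences, a log2 difference of 1.64 after TNFα (adjusted p = 2.71e-10) and a 2.83-fold difference without it (adjusted p = 1.09e-09).

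Of 13 atypical Dusp genes, the class of Dusp14, 1 rose in SIMPL-/- MEFs after TNFα (Dusp3, by 0.37, adjusted p = 0.00578) and 1 fell in littermate MEFs (Dusp19, by 0.24, adjusted p = 0.0361). Dusp3 stood at 0.25 in littermate MEFs, just short of a call (limma adjusted p = 0.053). Between the genotypes 4 were higher and 0 lower after TNFα, and 4 were higher and 3 lower without it. None of the 13 differed in response by limma.

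**Figure D4:**
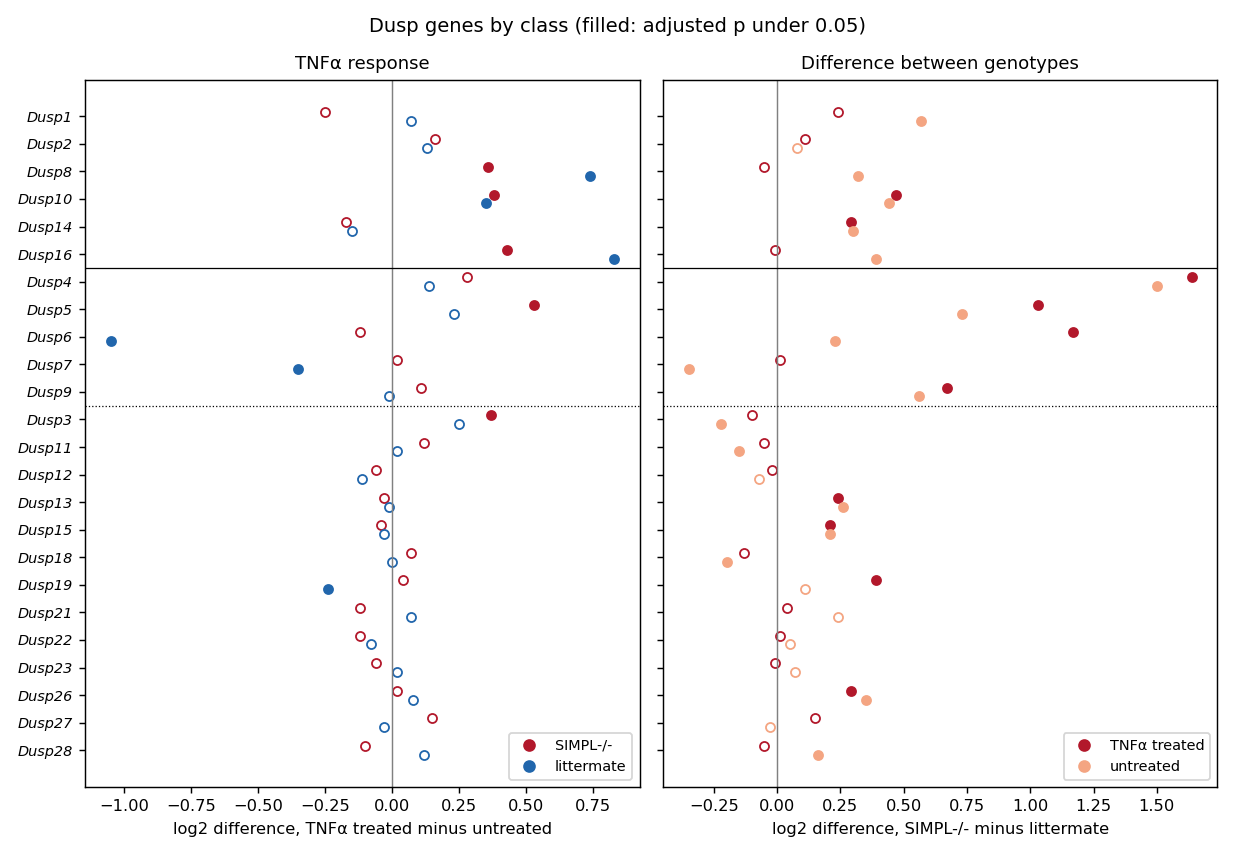
Log2 differences (horizontal axes) of 24 Dusp genes (vertical axis), with the 6 described here above the solid line, the other MAP kinase phosphatases between the lines and the atypical genes below; filled points had an adjusted p under 0.05. Left, TNFα treated minus untreated in SIMPL-/- MEFs (red) and littermate MEFs (blue), where Dusp6 has the lowest point at −1.05 in littermate MEFs. Right, SIMPL-/- minus littermate in treated (red) and untreated (orange) MEFs, where Dusp4 reaches 1.64.

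Of 7 genes for JNK and p38 themselves, 0 passed the test for a TNFα difference in either genotype. Mapk14, which encodes p38α, was higher in SIMPL-/- MEFs by 0.33 after TNFα (adjusted p = 1.84e-04) and by 0.17 without it (adjusted p = 0.0317), and Mapk11, which encodes p38β, by 0.29 after TNFα and 0.31 without it (adjusted p = 0.00344 and 0.00215). The other 5 did not pass the test in either comparison. Of 20 measured of 22 upstream kinases and adaptors, 2 rose and 2 fell after TNFα in SIMPL-/- MEFs and 1 rose and 1 fell in littermate MEFs. Between the genotypes 6 were higher and 4 lower after TNFα, and 5 higher and 5 lower without it. Among all genes 17.8% were higher and 18.4% lower after TNFα, and 23.3% higher and 17.6% lower without it. Genotype counts of the other lists are to be read beside the same shares. Map2k3, which encodes the p38 kinase MKK3, rose by 0.29 after TNFα in SIMPL-/- MEFs (limma adjusted p = 0.00847). In littermate MEFs its difference of 0.18 was not called (limma adjusted p = 0.117), nor was the difference between the responses (0.12, adjusted p = 0.58). Map2k3 was higher in SIMPL-/- than in littermate MEFs, by 0.66 with TNFα and 0.55 without (limma adjusted p = 4.44e-08 and 7.20e-07). Map2k6 of the same list was lower in SIMPL-/- MEFs, with differences of −0.28 with TNFα and −0.53 without (limma adjusted p = 0.00717 and 2.42e-05).

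Of 6 scaffolds of these pathways, 0 passed the test for a TNFα difference, and Arrb2, the β-arrestin 2 gene, was lower in SIMPL-/- MEFs, with log2 differences of −1.30 after TNFα and −1.29 without it (adjusted p = 1.07e-10 and 1.34e-10). After TNFα 2 scaffolds were higher and 2 lower in SIMPL-/- MEFs, and without it 1 was higher and 2 lower. Of 8 other phosphatases of p38 and JNK, 0 passed after TNFα in SIMPL-/- MEFs, and 1, the p38 phosphatase gene Ppm1d, fell by 0.26 in littermate MEFs (adjusted p = 0.032). After TNFα 0 were higher and 1 lower in SIMPL-/- MEFs, and without it 1 was higher and 2 lower.

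Of 17 target transcription factors of JNK and p38, 6 rose and 0 fell in SIMPL-/- MEFs after TNFα, and 7 rose and 1 fell in littermate MEFs; over the alternatives, 3 to 7 rose in each genotype. Junb, a Jun family subunit of AP-1, rose by 0.89 in SIMPL-/- MEFs and 1.08 in littermate MEFs (adjusted p = 2.22e-07 and 5.92e-09). Atf3, a stress-induced factor of the family that binds CRE-like sites, rose by 0.79 in SIMPL-/- MEFs and 1.48 in littermate MEFs (adjusted p = 4.58e-04 and 7.98e-08), with a difference between the responses of −0.69 (SE 0.17, adjusted p = 0.09). That difference passed with array weights, with the dimmer genes left out, and without untreated SIMPL-/- replicate 2 or treated littermate replicate 1 (adjusted p from 0.0104 to 0.0385). By limma it also passed the other threshold, a fold over 1.5 and an unadjusted p under 0.001 (unadjusted p = 7.67e-04). Fosl1, a Fos family subunit of AP-1, rose by 1.01 in SIMPL-/- MEFs and 0.92 in littermate MEFs (adjusted p = 2.59e-05 and 4.72e-05), with a difference of 0.08 (adjusted p = 0.872). Of 8 measured of 9 p38 effector kinases and their targets, 2 rose in each genotype, Mapkapk2 and Zfp36. Zfp36, which encodes the mRNA-destabilizing protein tristetraprolin, rose by 0.71 in SIMPL-/- MEFs and 1.15 in littermate MEFs (adjusted p = 4.70e-05 and 4.37e-08). By limma, 0 of the 17 factors and 0 of the 8 effectors differed in response at an adjusted p under 0.05. Between the genotypes 3 factors were higher and 8 lower after TNFα and 5 higher and 8 lower without it, while 2 effectors were higher and 4 lower after TNFα and 2 higher and 3 lower without it.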

How the data were processed

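RNA of MEF cultures was hybridized to 16 Affymetrix Mouse Gene 1.0 ST arrays, 4 per group, and arrays were assigned to groups by the sample labels. The deposited values are log2 values that the authors made with RMA in Partek by the submitters' notes, which give no versions, whereas the study's methods name Affymetrix Microarray Suite. They ran from 2.41 to 14.88. RMA normalizes all arrays together and compresses the differences of dim genes. Arrays of a group correlated across genes with an r of 0.995 or more, and precision is limited by how many arrays there were.

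Of 28853 probe sets, 21789 are paired with 1 gene symbol, 1621 with several and 5443 with none in the annotation table, and the last 2 kinds were left out. The result was 19938 genes, and the brightest probe set by its mean over the arrays stood for each of the 999 that have several. By gene ID, 19856 genes matched a RefSeq table, and RefSeq promoter windows were found for all 6 members.

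A linear model of the 4 group means was fitted to all genes and arrays with limma 3.58.1 in R 4.3.3 (12 residual and 6.19 prior degrees of freedom). Tests were two-sided, with Benjamini-Hochberg adjustment over the genes of each comparison and calls at an adjusted p under 0.05. The fit was tested on simulated data, and the settings and outcome of that test are not given here. The members, gene lists and tests were chosen with earlier results of these data known. Named genes were all members, Irak1bp1, for each member the 2 genes with the highest r over the arrays, and of each pathway list some of the up to 4 genes with the largest change among those called in a comparison. Alternatives were centring on array medians, quantile normalization, leaving out the dimmer genes, averaging probe sets per gene, a variance trend with robust moderation, array weights, only the compared arrays, the methods' t-test, other thresholds, and leaving out each array. The other probe set of Dusp8 was added after the data were seen.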

Additional observations from a re-analysis of the deposited data

Results flagged for a closer look

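Of 24 groups of 4 arrays (6 genes in 4 groups), 3 held an array whose gap to the nearest other array, divided by the range of the group, was above Dixon's critical value for 4 arrays, which chance exceeds in about 5% of groups. Dusp1 on untreated SIMPL-/- replicate 1 had a log2 value of 9.77, against 9.36 to 9.40 on the other 3 arrays (ratio 0.921). Without this array the genotype difference in untreated MEFs was 0.47, the lowest over all alternatives, and was still called. Dusp8 on untreated SIMPL-/- replicate 4 had 7.98, against 8.04 to 8.05 (ratio 0.918), a gap that is small beside its differences between groups. Dusp10 on TNFα treated littermate replicate 1 had 7.60, against 7.99 to 8.06 (ratio 0.834), and this array is the one that overlaps the untreated littermate arrays. The same treated littermate array was the lowest of its group for 5 of 6 members, and replicate 3 of that group was the highest for 6 of 6. Untreated SIMPL-/- replicate 1 was the highest of its group for 4 of 6 members and replicate 4 the lowest for 4.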

How the results depend on the processing

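Of 829 differences of a member under an alternative setting, 763 kept their direction and side of the threshold, 36 lost the call, 14 gained one and 16 changed sign, all 16 between values within 0.08 of 0. The TNFα responses of Dusp8 and Dusp16 in littermate MEFs kept their calls under all 28 alternatives, with differences of 0.69 to 0.90 and 0.78 to 0.90. At a fold over 1.5 and an unadjusted p under 0.001, by limma or by the methods' t-test, 0 members were higher in the SIMPL-/- response, after TNFα or without TNFα. The difference between the responses had 0 members lower as reported, 1 after quantile normalization, and 2 with the dimmer genes left out, with trend and robust moderation or with array weights; without 1 array it had 0 to 2. With the dimmer genes left out, 1 member was lower in the SIMPL-/- response, and Dusp2 was not tested. Among the signs that turned, Dusp14 in the difference between the responses was 0.02 after centring and −0.04 to 0.02 without 1 array, Dusp2 was −0.01 to 0.09 and Dusp10 −0.08 to 0.08 without 1 array. After TNFα, Dusp8 was 0.02 after centring and 0.02 after quantile normalization, and Dusp16 was 0.06 and 0.03, and −0.08 to 0.04 without 1 array. Dusp2 in untreated MEFs was −0.01 after quantile normalization. The Dusp16 call in the SIMPL-/- response was lost by the methods' t-test (adjusted p = 0.0596), as was the Dusp10 call in the littermate response (0.246; 0.0932 with only the compared arrays). Over all genes, the difference between the responses had 19 higher and 88 lower calls as reported, 39 and 97 after quantile normalization, 74 and 126 with the dimmer genes left out, 98 and 155 with trend and robust moderation, 50 and 132 with array weights, 7 and 66 by a test without moderated variances, and 5 to 54 and 61 to 130 without 1 array. In the SIMPL-/- response, 345 and 278 became 502 and 503 with the dimmer genes left out and 175 and 66 by the methods' t-test, and in the littermate response 538 and 488 became 301 and 200 by that test. List counts moved too: over the alternatives, 2 to 10 of the 17 factors were lower after TNFα (8 as reported), 0 to 3 of the 7 JNK and p38 genes were higher after TNFα (2 as reported) and 0 to 4 of the 20 upstream genes rose in SIMPL-/- MEFs (2 as reported). The causes of these shifts were not tested. No fit of the compared arrays alone gives the difference between the responses. No paired analysis was possible because it is not given which treated and untreated arrays come from the same embryo, although the methods leave room for such pairs.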
